A study of Mus musculus with 19 samples.

Results

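The genes described here are 48 genes of the cell cycle and of DNA replication, chosen by name from 22367 protein-coding mouse genes. They hold the cyclins, their kinases and the Cdc25 phosphatases, the transcription factors that drive cycling, the origin licensing and helicase proteins, enzymes of DNA synthesis, mitotic genes and 3 CDK inhibitors. All 48 were found in the annotation. For each gene, peaks of the YAP and TEAD chromatin immunoprecipitations were counted in the gene body with 10 kb on either side, and in the promoter, from 2000 bp before to 1000 bp after any annotated start. The same counts over the other 22319 protein-coding genes gave the background. The lists name where protein was bound and hold no expression, so nothing here says whether a gene's RNA changed.

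D-type cyclins with Cdk4 and Cdk6, and then cyclin E with Cdk2, phosphorylate the retinoblastoma proteins and so release E2F factors, which switch on the genes for origin licensing and DNA synthesis. The genes of mitosis follow later in the cycle, and many of them carry CCAAT and CHR elements near the start. The DREAM and MuvB complexes act through the CHR element. Hepatocytes of the adult liver seldom divide. YAP, a coactivator with no DNA-binding domain of its own, is carried to DNA chiefly by TEAD factors and promotes growth of the liver.

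The study followed YAP and TEAD on liver chromatin of C57BL/6 mice in 19 ChIP-seq samples. Wild-type controls carried ROSA26-rtTA-IRES-EGFP without a YAP transgene and had doxycycline food for 7 days (WT). The induced animals carried ROSA26-rtTA-IRES-EGFP with tetYAP, which encodes an activated YAP mutated at an inhibitory phosphorylation site, and had the food for 3 days (3d) or 7 days (7d). The study's methods place the transgene under an rtTA that Alb-Cre switches on in hepatocytes, and it is not given whether the controls also carried Alb-Cre. Each group had 3 replicates, and TEAD at 7d had 4.

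The deposited lists merge the replicates of a group, so each value below is 1 value per condition with no spread between animals, and no test between conditions could be made. The number of merged tags per list was between 34260362 and 55032002. For TEAD, 5695 peaks were listed in WT, 36446 at 3d and 38984 at 7d. The median fold enrichment over each whole TEAD list was 5.05, 5.44 and 7.30. A higher fold at 7d than at 3d is therefore not by itself a gain particular to a gene. For YAP the WT, 3d and 7d lists held 156, 110 and 1478 peaks. The calling threshold was a p-value of 1e-05, all lists shared 1 control library, and a gene without a peak is a gene where no region passed that threshold. The fragment length behind the TEAD WT list was 400 bp, while it was 207 bp at 3d and 206 bp at 7d. The antibody to TEAD was raised to TEAD4 and is reported to recognise TEAD1 and TEAD3 also. The tissue was whole liver, in which more bound protein per cell and more cells with bound protein cannot be told apart. Among cell type markers, 1 of 6 hepatocyte markers had a TEAD promoter peak in WT, and all 6 had one at 3d and at 7d. None of the 4 macrophage or 3 lymphocyte markers had one in any TEAD list. At 7d, 1 of 4 cholangiocyte markers and 1 of 4 endothelial markers had one. Of other protein-coding genes, 8.68% had one in WT, 38.8% at 3d and 37.5% at 7d. In the gene body with 10 kb, 2 of the 4 macrophage markers had a TEAD peak at 3d and at 7d.

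YAP itself was found at Ccnd1 and Cdc25a and at no other of the 48 genes. Ccnd1, which encodes cyclin D1, had 3 YAP peaks at 7d, and Cdc25a, the phosphatase that activates Cdk2 and Cdk1, had 1. In the YAP lists of WT and 3d livers, 0 of the 48 genes had a peak, where 0.116% and 0.161% of other genes had one. At 7d the 2 genes made up 4.17% of the 48 (95% Wilson interval 1.15 to 14.0%), against 4.80% of other genes. A YAP promoter peak at 7d was found at 1 of the 48 genes, Ccnd1 (2.08%, interval 0.369 to 10.9%), against 1.03% of other genes. In WT and at 3d no member promoter held a YAP peak, and the shares of other genes were 0.0358% and 0.0717%. Both 7d intervals held the share of other genes. Per length the members had 0.197 YAP peaks per 100 kb at 7d and other genes 0.0992, where 3 of the 4 peaks behind the first value lay at Ccnd1. These values divide summed peaks by summed window length, and the mean window was longer for other genes. Within 10 kb of the 5′-most start alone, 2 members had a YAP peak, against 2.13% of other genes. With 2 bound genes, a YAP share above or below that of other genes could not be told.

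The 4 YAP sites are printed below because they are the places where YAP was measured at these genes. Each line holds 201 bp of NCBIM37 (mm9) around the YAP summit, on the plus strand from 5′ to 3′, with each CATTCC or its complement GGAATG, the core of the TEAD motif, in capitals. Ccnd1 lies on the minus strand at chr7:152115836-152125774 and Cdc25a on the plus strand at chr9:109778083-109796392.
Ccnd1, upstream of the gene, chr7:152129158-152129358, plus strand: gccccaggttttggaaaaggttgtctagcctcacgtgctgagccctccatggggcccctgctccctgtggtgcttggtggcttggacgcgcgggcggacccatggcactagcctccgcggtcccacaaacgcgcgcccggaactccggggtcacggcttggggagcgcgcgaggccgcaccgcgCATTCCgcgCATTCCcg
Ccnd1, promoter, chr7:152127616-152127816, plus strand: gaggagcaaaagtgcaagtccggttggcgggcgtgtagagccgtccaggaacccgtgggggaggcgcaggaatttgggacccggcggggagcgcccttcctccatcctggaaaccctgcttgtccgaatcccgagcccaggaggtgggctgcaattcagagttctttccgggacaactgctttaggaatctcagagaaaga
Ccnd1, downstream of the gene, chr7:152113399-152113599, plus strand: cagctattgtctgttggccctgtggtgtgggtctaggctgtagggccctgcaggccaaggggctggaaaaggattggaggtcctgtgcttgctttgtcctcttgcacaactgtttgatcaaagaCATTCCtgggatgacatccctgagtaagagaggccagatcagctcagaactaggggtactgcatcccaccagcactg
Cdc25a, upstream of the gene, chr9:109773541-109773741, plus strand: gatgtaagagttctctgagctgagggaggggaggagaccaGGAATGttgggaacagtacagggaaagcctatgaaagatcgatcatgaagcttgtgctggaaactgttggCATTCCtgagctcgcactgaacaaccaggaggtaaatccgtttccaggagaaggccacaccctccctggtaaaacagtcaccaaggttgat

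At the upstream Ccnd1 site, chr7:152129090-152129473, YAP was enriched 5.68-fold over control at 7d and ranked 824 of 1478. The summit lay 3484 bp before the nearest start. TEAD was bound there in all 3 conditions, with a fold enrichment of 13.6 in WT, 38.1 at 3d and 52.8 at 7d. These were the highest TEAD values at any of the 48 genes in each list, at ranks 145 of 5695, 104 of 36446 and 153 of 38984. The 7d TEAD summit had 2 copies of CATTCC within 50 bp, the pair that stands at the right end of the printed sequence.

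At the promoter site of Ccnd1, chr7:152127500-152127820, YAP was enriched 5.85-fold with its summit 1942 bp before the start. TEAD enrichment at this site was 6.51 in WT, 13.3 at 3d and 23.1 at 7d. The printed window holds no CATTCC. At the downstream site, chr7:152113327-152113770, YAP was enriched 7.83-fold and ranked 158, the strongest of the 4. TEAD enrichment there was 6.58, 15.1 and 22.0 in WT, 3d and 7d livers. The 3 Ccnd1 sites were thus bound by TEAD in WT livers, and at each the TEAD fold was higher at 3d and higher again at 7d. The median fold of the whole list was also higher at 7d. By rank, the upstream site stood in the strongest 0.285% at 3d and 0.392% at 7d, and the downstream site in 3.45% and 3.95%. The promoter site alone moved up, from 8.38% to 6.96%.

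The YAP peak near Cdc25a, chr9:109773441-109773744, lay 4442 bp upstream of the start and was enriched 5.68-fold. TEAD enrichment at the site was 5.98 in WT, 17.2 at 3d and 32.3 at 7d. The promoter of Cdc25a had no TEAD peak in WT and peaks of at most 7.22-fold at 3d and 8.95-fold at 7d, with no YAP peak. For Cdc25a the stronger TEAD site was therefore the distal one. All 4 YAP peaks overlapped a TEAD peak in each of the 3 TEAD lists. Among the strongest 10% of TEAD peaks at 7d, 12 lay at 8 of the 48 genes, and 4 of them (33.3%) overlapped a YAP peak, against 1149 of 3898 (29.5%) over the whole list.

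**Figure D1:**
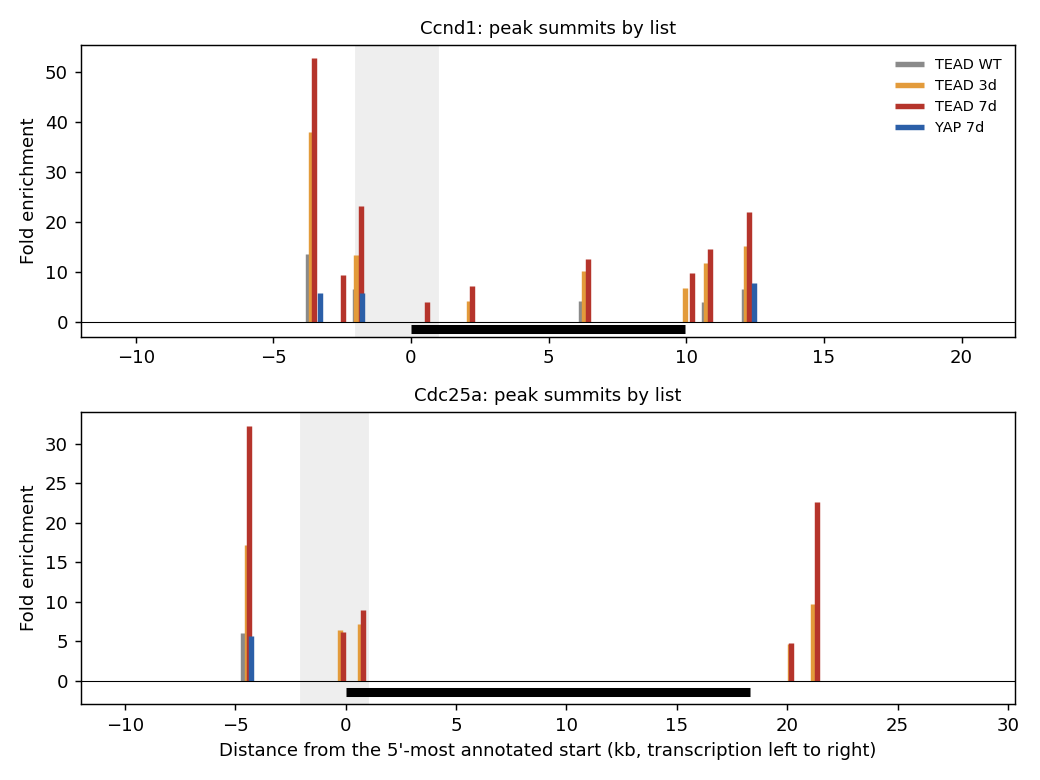
Fold enrichment over control (vertical axis) of every TEAD peak in WT, 3d and 7d livers and every YAP peak at 7d near Ccnd1 and Cdc25a, by distance of the summit from the 5′-most annotated start in kb, with bars of one site set slightly apart; the black bar is the gene body and the shaded band the promoter of that start (Ccnd1 has a second start inside the gene). The upstream Ccnd1 site reaches 52.8 for TEAD at 7d, and each of the 4 YAP bars, from 5.68 to 7.83, stands beside TEAD bars of all 3 conditions.

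TEAD was found at most of the 48 genes once YAP was induced, as it was at most other genes. At 7d other genes too had a TEAD peak more often than a YAP peak (59.6% against 4.80%). The YAP list at 7d was far shorter (1478 peaks against 38984 for TEAD) and its tissue was fixed differently. No contrast between the proteins is therefore drawn from these shares. In WT livers 12 genes (25.0%, interval 14.9 to 38.8%) had a TEAD peak in the gene body with 10 kb, against 20.1% of other genes. At 3d there were 39 (81.2%), against 58.8%, and at 7d there were 44 (91.7%), against 59.6%. The 12 genes of WT livers had a peak in each of the 3 TEAD lists, and 19.9% of other genes did. Of the 19 member peaks in WT, 19 overlapped a peak at 3d and 18 at 7d. The exception was a site of 4.12-fold enrichment downstream of Cdkn2c, a CDK inhibitor, which had 4.76-fold at 3d and no peak at 7d.

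Promoter peaks showed a wider gap than the larger window in the induced livers. In WT 7 of the 48 promoters (14.6%, interval 7.25 to 27.2%) had a TEAD peak, against 8.68% of other genes, a difference inside the interval. At 3d 33 promoters (68.8%, 54.7 to 80.1%) had one, against 38.8%. At 7d 37 promoters (77.1%, 63.5 to 86.7%) had one, against 37.5%. The 3d and 7d intervals lay above the share of other genes. These intervals cover counting over genes only. Per length, the members had 0.934, 4.77 and 5.50 TEAD peaks per 100 kb of window in WT, 3d and 7d livers. Other genes had 0.413, 2.67 and 2.75. Median windows were of like size (34.1 and 35.4 kb), but each value divides summed peaks by summed window length. The mean window was longer for other genes, so this gap cannot be read as a gap per gene.

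**Figure D2:**
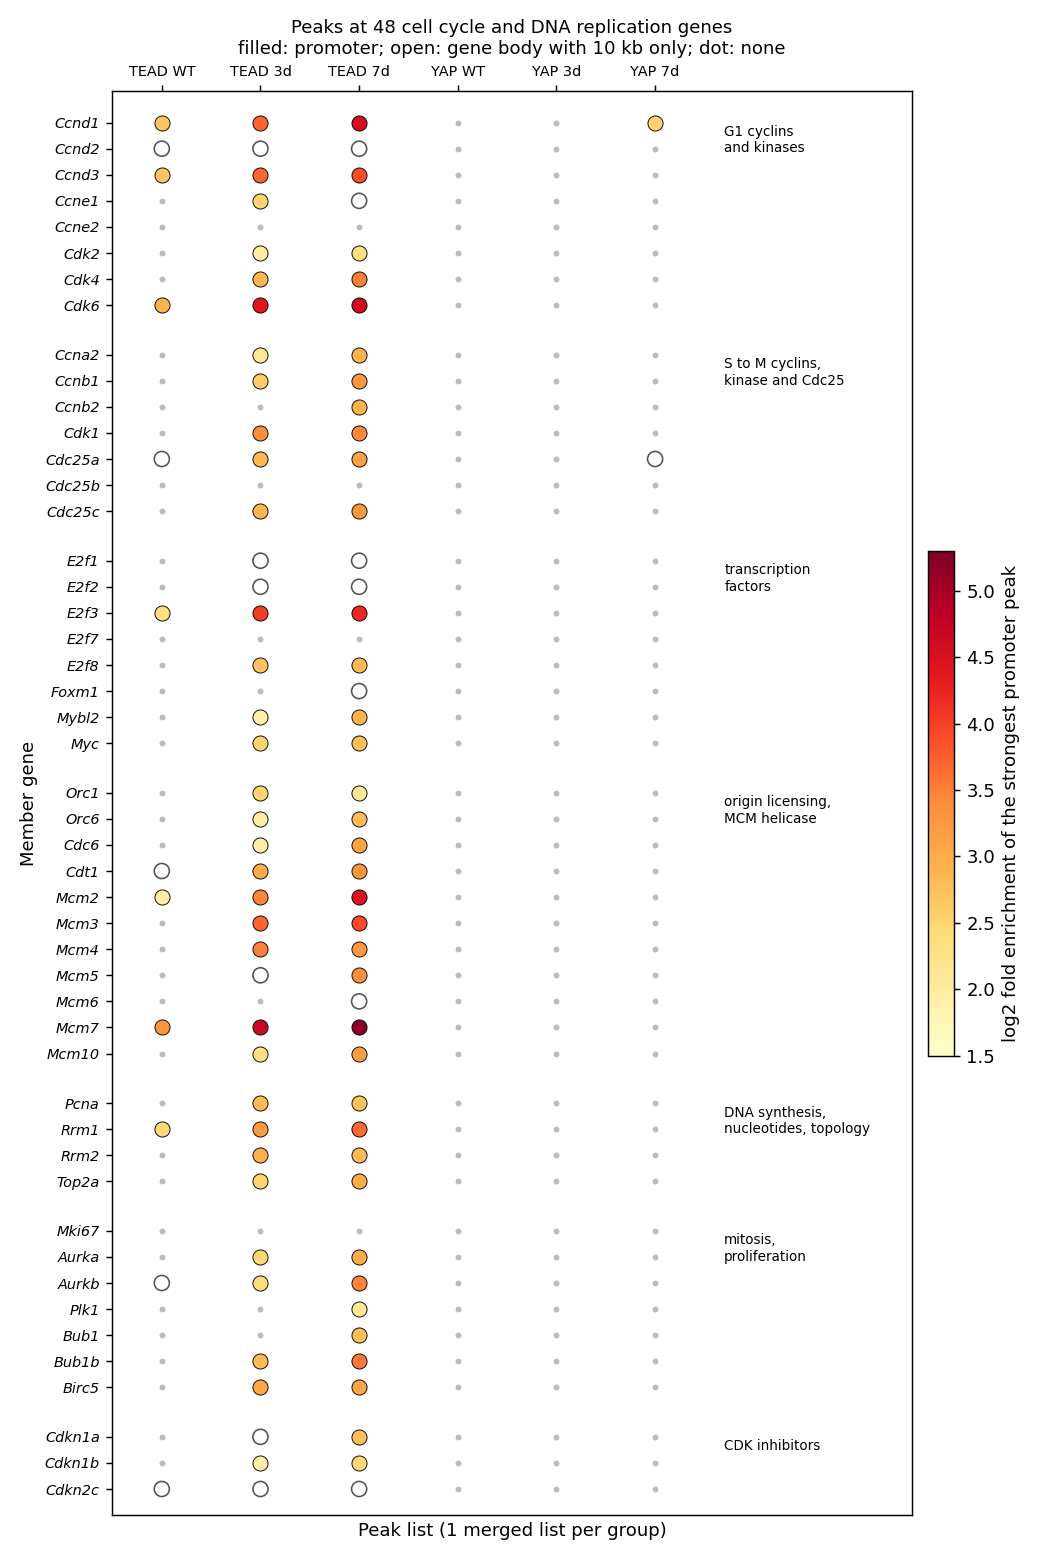
Each row is 1 of the 48 genes in order of role and each column 1 merged peak list; filled circles mark a promoter peak, coloured by the log2 fold enrichment of the strongest one, open circles a peak in the gene body with 10 kb only, and small dots no peak. Filled circles stand at 7 genes for TEAD in WT, 33 at 3d and 37 at 7d, and at Ccnd1 alone for YAP.

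By time, 7 genes had a TEAD promoter peak already in WT livers, and all of them had one at 3d and 7d as well. They were Ccnd1, Ccnd3, Cdk6, E2f3, Mcm2, Mcm7 and Rrm1. Another 25 genes (52.1%, interval 38.3 to 65.5%) had none in WT and a promoter peak at both 3d and 7d, against 25.0% of other genes. A promoter peak at 7d only was found for Bub1, Ccnb2, Cdkn1a, Mcm5 and Plk1, which is 10.4% of the members (4.53 to 22.2%) against 3.83% of other genes. Ccne1 was the 1 gene with a promoter peak at 3d only, against 5.16% of other genes. The remaining 10 genes had no TEAD promoter peak in any list (20.8%, 11.7 to 34.3%), against 57.3% of other genes. Of the 32 genes with promoter peaks at both 3d and 7d, the peaks overlapped for 30. Those of Cdc6 and Cdkn1b lay at different places at the 2 times. For Birc5, Ccnb1 and Myc, which had several promoter peaks, the strongest one was at a different site at 3d and at 7d.

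The role groups below are small, and their counts stand against the same shares of other genes, 8.68% in WT, 38.8% at 3d and 37.5% at 7d. Other genes rich in CpG near the start, as most members were, had higher shares, 60.1% at 3d and 57.3% at 7d. That comparison is taken up further below. Among the 8 G1 cyclins and kinases, 3 had a TEAD promoter peak in WT (37.5%, interval 13.7 to 69.4%). This number was 6 at 3d (75.0%, interval 40.9 to 92.9%) and 5 at 7d (62.5%, interval 30.6 to 86.3%), where the interval held the share of other genes. Cdk6, a partner of the D cyclins, had 1 TEAD promoter peak of 7.58-fold in WT, 21.0-fold at 3d and 24.7-fold at 7d, with the 7d summit 1443 bp before the start. It was the second strongest member promoter peak at 7d, and its summit carried the TEAD motif. The sequence is shown for that reason, in NCBIM37 with the motif in capitals, for a gene on the plus strand at chr5:3343893-3523218.
Cdk6, promoter, chr5:3342350-3342550, plus strand: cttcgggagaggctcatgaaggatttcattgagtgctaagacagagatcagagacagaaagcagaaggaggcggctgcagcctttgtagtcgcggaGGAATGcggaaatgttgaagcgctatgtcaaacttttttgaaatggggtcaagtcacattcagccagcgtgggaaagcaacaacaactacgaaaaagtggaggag

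Ccnd3, encoding cyclin D3, had a peak at its downstream alternative start of 6.51-fold in WT, 13.1-fold at 3d and 14.8-fold at 7d. An intronic Ccnd3 site had 4.39-fold in WT, 16.2-fold at 3d and 26.2-fold at 7d. Ccnd2, encoding cyclin D2, had no promoter peak, and its 1 site, in an intron, had 5.45-fold in WT, 11.5-fold at 3d and 9.19-fold at 7d. All 3 D cyclins were therefore bound by TEAD in WT livers. The E cyclins were not: Ccne1 had 1 peak of 5.75-fold at its promoter at 3d and 1 of 5.89-fold at another site at 7d, and Ccne2 had no peak in any list. Cdk4, the other kinase of the D cyclins, had a promoter peak of 7.39-fold at 3d and 11.3-fold at 7d and none in WT. The Cdk2 peak, of 3.94-fold and 5.02-fold, was weaker and lay in the promoter of Pmel as well.

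The 7 cyclins, kinase and phosphatases of S phase to mitosis had 0 TEAD promoter peaks in WT, where the share of other genes was 8.68%. At 3d 5 genes had one (71.4%, interval 35.9 to 91.8%, against 38.8%) and at 7d 6 (85.7%, 48.7 to 97.4%, against 37.5%), so that the 7d interval alone lay above the share of other genes. Cdk1, the mitotic kinase, had 10.5-fold at 3d and 10.8-fold at 7d, with summits 104 and 81 bp before the start. Ccnb1, encoding cyclin B1, had 2 sites. The one at 108 and 99 bp before the start had 3.78-fold at 3d and 9.58-fold at 7d, and the one at 933 and 912 bp had 6.07-fold and 6.60-fold. Ccna2, encoding cyclin A2, had 4.34-fold at 3d and 7.54-fold at 7d, and Ccnb2 had a peak at 7d only, of 7.54-fold. Cdc25c had 7.39-fold and 9.81-fold. Cdc25b alone of this group had no peak of either protein in any list.

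Of the 8 transcription factors, 1 had a TEAD promoter peak in WT, 4 at 3d and 4 at 7d (interval 21.5 to 78.5% at both times). All 3 intervals held the share of other genes (8.68%, 38.8% and 37.5%). E2f3, an activating E2F, had 4.93-fold in WT, 16.4-fold at 3d and 18.4-fold at 7d. E2f1 had no promoter peak by the rule, but a TEAD peak in an intron, 1465 and 1453 bp after the nearest start, had 9.10-fold at 3d and 31.7-fold at 7d, at rank 6309 and rank 1158. It lay just outside the promoter window and had 1 CATTCC within 50 bp of the summit. E2f2 had an intronic peak of 10.5-fold at 3d and 16.9-fold at 7d. Thus the 3 activating E2F genes each had a TEAD peak of at least 16.9-fold at 7d, and in WT the E2f3 peak of 4.93-fold was the only one.

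The other factors had TEAD promoter peaks of at most 7.54-fold at 7d or none. Myc had 3 promoter peaks at 3d and 4 at 7d, with at most 5.75-fold and 6.83-fold, at different sites. Mybl2, part of the MuvB complex in S phase and G2, had 3.67-fold and 7.54-fold at its promoter and an intronic peak of 4.65-fold at 3d and 13.6-fold at 7d. The promoter peak of E2f8, a repressing E2F, had 6.63-fold and 7.07-fold. The 1 peak near Foxm1, a driver of mitotic genes, was found at 7d in the promoter of its neighbour Tulp3. E2f7 had no peak in any list.

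Of the 11 genes of origin licensing and the MCM helicase, the largest group, 2 had a TEAD promoter peak in WT (18.2%, interval 5.14 to 47.7%, against 8.68%), 9 at 3d (81.8%, 52.3 to 94.9%, against 38.8%) and 10 at 7d (90.9%, 62.3 to 98.4%, against 37.5%). The 3d and 7d intervals lay above the share of other genes. Mcm7 had the strongest TEAD promoter peak of the 48 genes in all 3 lists, at 9.84-fold in WT, 25.3-fold at 3d and 36.6-fold at 7d. That peak lay at an internal start of Mcm7 and in the promoter of Ap4m1 too, so it cannot be given to one gene. Mcm2 had 3.85-fold, 11.0-fold and 21.9-fold within 50 bp of its start. Mcm3, with no peak in WT, had 13.1-fold at 3d and 15.1-fold at 7d. Mcm4 had 11.3-fold and 9.46-fold in a promoter shared with Prkdc.

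The other licensing genes had promoter peaks of at most 10.4-fold at 7d. Mcm10 had 4.83-fold at 3d and 9.19-fold at 7d, and Mcm5 had 10.4-fold at 7d only. Mcm6, by contrast, had no promoter peak and 1 intronic peak at 7d of 3.77-fold, at rank 38672 of 38984. Cdt1, which loads the helicase, had a promoter peak of 8.14-fold at 3d and 9.91-fold at 7d. A site downstream of Cdt1 and nearest to Aprt was far stronger, with 4.65-fold in WT, 19.4-fold at 3d and 37.6-fold at 7d. Orc1 had 5.75-fold and 4.37-fold and Orc6 3.92-fold and 7.02-fold, in promoters shared with Prpf38a and Vps35. Cdc6 had 3.78-fold at its first start at 3d and 8.67-fold before an internal start at 7d.

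All 4 genes of DNA synthesis, nucleotide supply and topology had a TEAD promoter peak at 3d and at 7d (interval 51.0 to 100%, against 38.8% and 37.5%). Rrm1, the large subunit of ribonucleotide reductase, had one in WT too, at 5.45-fold, with 9.26-fold at 3d and 12.6-fold at 7d. Rrm2, the small subunit, had 7.88-fold at 3d and 7.07-fold at 7d. Pcna, the sliding clamp of the polymerases, had 7.06-fold and 6.62-fold, and Top2a, topoisomerase II alpha, had 5.75-fold and 8.01-fold. The 7d value was above the 3d value for Rrm1 and Top2a and below it for Rrm2 and Pcna, with no error measured for such steps.

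None of the 7 mitotic and proliferation genes had a TEAD promoter peak in WT, where 8.68% of other genes did. At 3d 4 had one (57.1%, interval 25.0 to 84.2%), which held the 38.8% of other genes, and at 7d 6 did (85.7%, 48.7 to 97.4%), against 37.5%. Bub1b, of the spindle checkpoint, had 7.06-fold at 3d and 11.8-fold at 7d, with summits within 50 bp of the start. Aurkb, encoding aurora kinase B, had 5.09-fold and 11.1-fold, and Aurka, in a promoter shared with Cstf1, had 5.58-fold and 7.95-fold. Birc5, encoding survivin, had 2 sites, one with summits 79 and 111 bp before the start and 6.07-fold and 8.48-fold, the other 1268 and 1334 bp before it with 8.37-fold and 7.78-fold. Plk1 and Bub1 had promoter peaks at 7d only, of 4.34-fold and 6.83-fold. Mki67, the gene of the proliferation marker Ki-67, had no peak in any list. Ccne2, Cdc25b, E2f7 and Mki67 were the 4 genes with no peak at all.

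Of the 3 CDK inhibitors, which hold cells out of cycle, 0 had a TEAD promoter peak in WT, 1 at 3d (interval 6.15 to 79.2%) and 2 at 7d (20.8 to 93.9%), and in no list did the interval leave out the share of other genes (8.68%, 38.8% and 37.5%). Cdkn1a, encoding p21, had 6.83-fold at 7d only. Cdkn1b, encoding p27, had 3.78-fold at 3d and 5.42-fold at 7d at sites that did not overlap. Cdkn2c had no promoter peak of its own, and its strongest site, of 5.32-fold, 8.54-fold and 19.8-fold, lay in the promoter of Faf1.

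At 7d most of the excess of members was in peaks of middle strength. When genes were classed by the rank of their strongest TEAD promoter peak at 7d, 7 members (14.6%) were in the strongest 20% of the list, against 8.06% of other genes. Between 20% and 40% there were 12 (25.0%), against 8.25%, and between 40% and 60% there were 13 (27.1%), against 7.76%. In the lower classes there were 1 and 4, or 2.08% and 8.33%, against 7.11% and 6.31%. At 3d the strongest 20% held 11 members (22.9%), against 9.61%, and the lower classes held 8, 7, 2 and 5, or 16.7%, 14.6%, 4.17% and 10.4%, against 8.86%, 8.11%, 7.37% and 4.85%. At both times the members' share was above that of other genes in 4 of the 5 classes, the weakest included. Among genes with a promoter peak the median fold enrichment at 7d was 8.95 for members and 7.78 for others, and 4 of 37 members (10.8%) were in the strongest 10% of the list, the same share as other genes (10.8%).

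**Figure D3:**
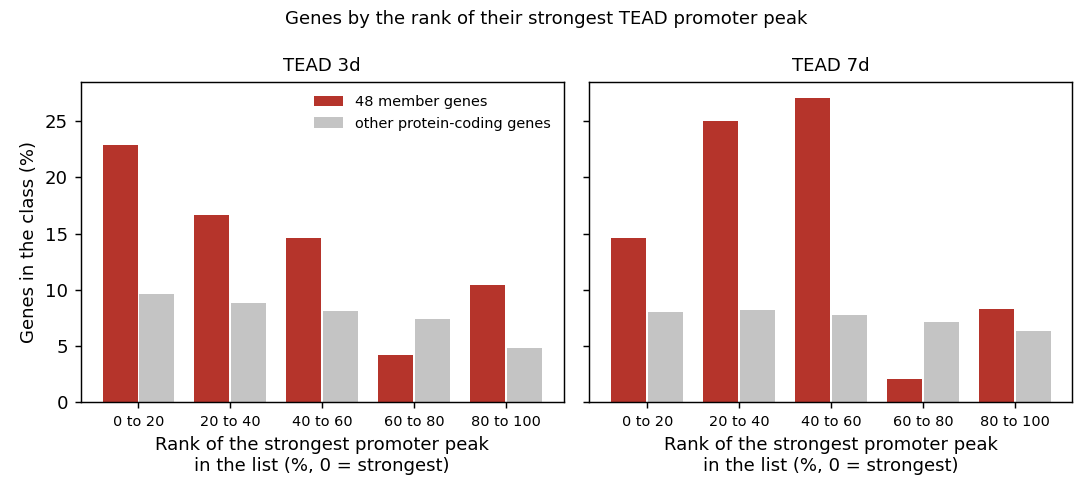
Share of the 48 genes and of other protein-coding genes whose strongest TEAD promoter peak fell in each 20% of the 3d and 7d lists by rank (horizontal axis in percent, 0 the strongest); genes without a promoter peak are in no class. At 7d the members stand at 25.0% and 27.1% in the classes from 20% to 60%, where other genes stand at 8.25% and 7.76%.

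List length entered the counts. With the 3d and 7d lists kept to their 5695 strongest peaks, as many as in WT, 9 members (18.8%, interval 10.2 to 31.9%) had a promoter peak at 3d and 5 (10.4%, 4.53 to 22.2%) at 7d, against 7.70% and 5.95% of other genes. The 5 at 7d were Ccnd1, Cdk6, E2f3, Mcm2 and Mcm7, each of which had a promoter peak in WT. At equal length the number of bound member promoters was thus 7, 9 and 5. The 3d interval lay above the share of other genes, and the 7d interval held it.

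Summits near the start were somewhat more frequent for members than for other genes in each list, with the widest gap at 7d. No interval was computed for these shares. At 7d the summit of the strongest promoter peak was within 250 bp of a start for 26 of 37 members (70.3%), against 55.3% of other genes with a promoter peak. At 3d these shares were 60.6% and 58.5%, and in WT 4 of 7 (57.1%) and 54.6%. The median distance at 7d was 146 bp for members and 197 bp for others.

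**Figure D4:**
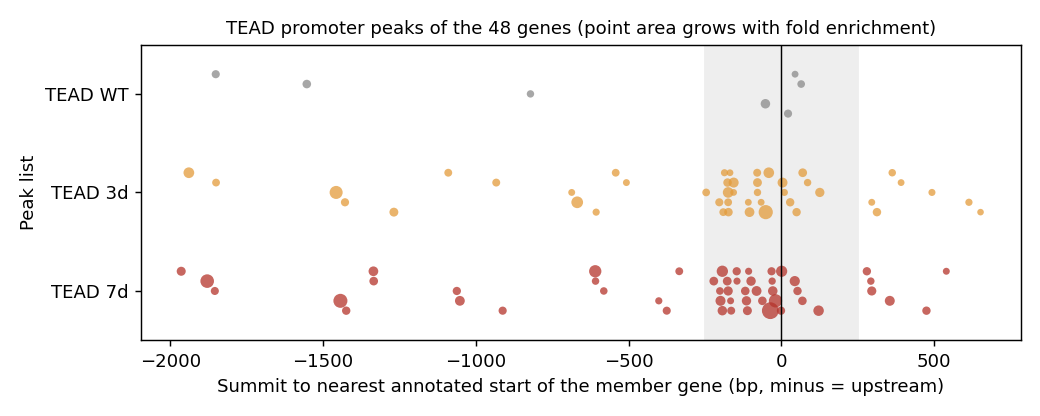
Distance in bp from the summit of each TEAD promoter peak of the 48 genes to the nearest annotated start of that gene (minus, upstream), in the WT, 3d and 7d lists (7, 45 and 51 peaks), with point area growing with fold enrichment, small vertical offsets for visibility, and the 250 bp on either side shaded. Counting the strongest peak of each gene, 26 of 37 summits at 7d lie in the shaded band.

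Promoter sequence was measured beside these counts, and CpG-rich starts had TEAD promoter peaks more often (at 7d 57.3% of other genes with such a start and 19.5% of those without). Called CpG-rich were starts with at least 50% G and C and an observed to expected CpG ratio of at least 0.6. In the 500 bp around the 5′-most start, 42 of the 48 genes (87.5%) were CpG-rich, against 47.6% of other genes. Among CpG-rich genes 33 of 42 members (78.6%, interval 64.1 to 88.3%) had a TEAD promoter peak at 7d, against 57.3% of other genes. At 3d 30 of 42 (71.4%, 56.4 to 82.8%) had one, against 60.1%, and in WT 5 of 42 (11.9%, 5.19 to 25.0%), against 13.2%. Within this CpG-rich class the 3d and WT intervals held the share of other genes and the 7d interval did not. The class is a cutoff, and CpG content was not matched within it. The role groups were not split by CpG class. Of their 3d and 7d intervals, only that of origin licensing at 7d (62.3 to 98.4%) lay above the share of other CpG-rich genes. When the whole promoter window was scored instead, 16 members were CpG-rich, and 9 of them (56.2%) had a TEAD promoter peak at 7d, against 57.2% of other CpG-rich genes, while 28 of the 32 others (87.5%) had one, against 34.1%.

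Few of the bound starts held the TEAD core motif. From 250 bp before to 50 bp after the 5′-most start, CATTCC on either strand was in 1 of 48 members (2.08%, interval 0.369 to 10.9%), Mcm3, against 13.5% of other genes and 10.5% of other genes with a CpG-rich start, the second of which the interval held. Within 50 bp of the summit, 9 of 51 member promoter peaks at 7d held it (17.6%, interval 9.57 to 30.3%), against 21.1% of other promoter peaks. For member peaks outside the promoter the count was 15 of 61 (24.6%, 15.5 to 36.7%), against 30.2% of other peaks outside promoters. Both intervals held the share of other peaks. In WT livers 6 of the 12 member peaks outside the promoter held it (interval 25.4 to 74.6%), against 40.6%.

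Other motifs of cell cycle promoters were counted in the same window. CCAAT was in 32 of 48 starts (66.7%, interval 52.5 to 78.3%), against 37.9% of other genes and 37.5% of those with a CpG-rich start. The E2F motif, searched as TTCCCGC, was in 8 (16.7%, 8.70 to 29.6%), against 5.56% and 9.70%, so that the interval held the share of other CpG-rich genes. The CHR element TTTGAA was in 13 (27.1%, 16.6 to 41.0%), against 16.2% and 9.67%. All motifs were searched on both strands, and their letters do not contain one another. Members with and without a TEAD promoter peak at 7d held CCAAT in 24 of 37 (64.9%) and 8 of 11 (72.7%), CHR in 10 of 37 (27.0%) and 3 of 11 (27.3%), and the E2F motif in 7 of 37 (18.9%) and 1 of 11 (9.09%). A match is a description of letters in this window and not of a bound site.

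Some member peaks lay in promoters of neighbours as well. With those peaks left out, 6 genes had a TEAD promoter peak in WT, 27 at 3d and 31 at 7d, against 6.50%, 30.5% and 29.5% of other genes counted the same way. Of the 61 member peaks outside the promoter at 7d, 15 lay in the promoter of another gene.

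Further genes of the cell cycle gave shares near those of the 48. Of 101 others, 16 (15.8%) had a TEAD promoter peak in WT, 74 (73.3%, interval 63.9 to 80.9%) at 3d and 69 (68.3%, 58.7 to 76.6%) at 7d. The shares over all protein-coding genes outside the 48 were 8.68%, 38.8% and 37.5%. YAP peaks at 7d were within 10 kb of 7 of the 101 (6.93%, interval 3.40 to 13.6%) and in the promoter of 3 (2.97%, 1.02 to 8.37%). Both intervals held the share of protein-coding genes outside the 48 (4.80% and 1.03%). In a list of 23 canonical YAP target genes, the TEAD promoter counts were 7 (30.4%), 11 (47.8%) and 13 (56.5%, 36.8 to 74.4%), and 8 (34.8%, 18.8 to 55.1%) had a YAP peak within 10 kb at 7d. Within 10 kb at 7d, 4.17% of the 48 genes had a YAP peak, against 4.80% of other genes and 34.8% of canonical targets. The intervals of the 48 genes and the canonical targets did not overlap. Windows of the canonical targets were longer (median 51.4 kb against 34.1 kb), and per 100 kb the YAP peaks were 0.502 against 0.197. In the promoter, 4 canonical targets had a YAP peak at 7d (17.4%, 6.98 to 37.1%). That interval overlapped the one of the 48 genes (0.369 to 10.9%). The TEAD promoter intervals of the 2 lists at 7d overlapped too.

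**Figure D5:**
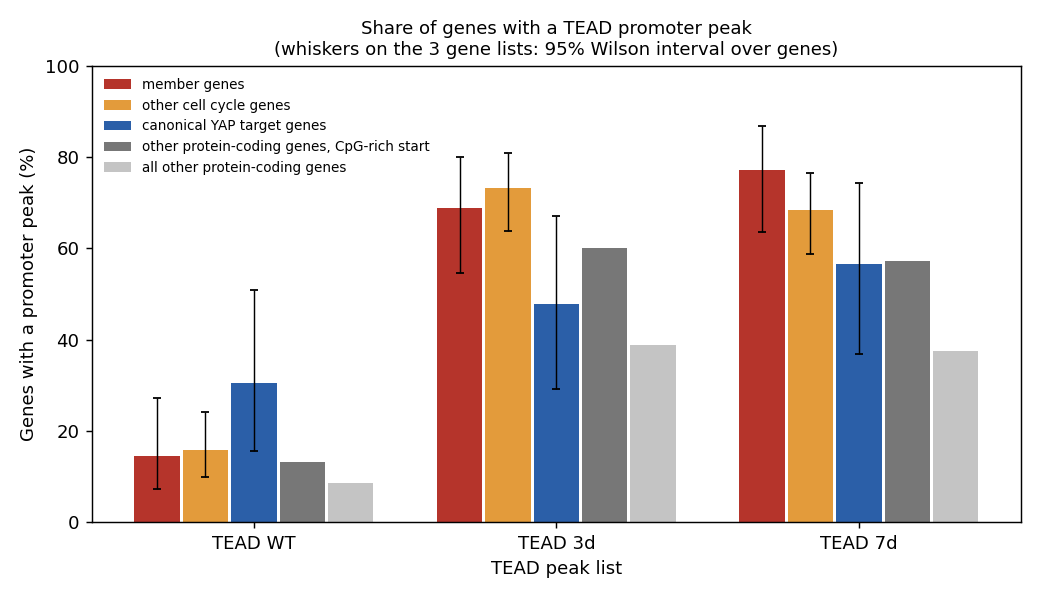
Percent of genes with a TEAD promoter peak in WT, 3d and 7d livers for the 48 genes, 101 other cell cycle genes, 23 canonical YAP target genes, other protein-coding genes with a CpG-rich start and all other protein-coding genes, with 95% Wilson intervals over genes as whiskers on the 3 lists. At 7d the bars stand at 77.1%, 68.3%, 56.5%, 57.3% and 37.5%.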

How the data were processed

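The study's methods and the submitters' processing notes name BWA 0.6.2, SAMtools and MACS2 2.0.9 on mm9. The authors merged the replicates of each group and called 1 peak list per group against 1 control library taken from earlier data. The deposited lists give, for each peak, the pileup signal, the fold enrichment ratio over control, and −log10 p-values and q-values (−log10 p ranked the peaks here). Their coordinates were matched to GENCODE M1 genes on NCBIM37 (mm9), and no peak ran past a chromosome end. Tissue for YAP was fixed with DSG and formaldehyde and for TEAD with formaldehyde, which keeps the lists of YAP and TEAD from being compared in level.

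Genes were counted as having a peak where at least 1 bp overlapped. Shares have 95% Wilson intervals (scipy 1.17.1), which cover counting over genes only. The assignment of peaks to gene and promoter windows was tested on simulated peaks. Members, lists and windows were chosen with earlier results of these data known. Named are the 10 strongest member promoters at 7d, all YAP sites, and members by role. Sequences are those at YAP peaks and at the 3 strongest promoters, leaving out windows that meet a UTR (Mcm7, Mcm2). The E2f1 and Cdt1 sites outside promoters were picked, and the 201 bp windows set, after values were seen. Alternatives changed windows, thresholds, list length and background genes. The CpG measure over 500 bp and the count without shared peaks were added after the data were seen.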

Additional observations from a re-analysis of the deposited data

How the results depend on the processing

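Of 47 recomputed counts of members with a peak that could move (YAP counts in WT and at 3d, all 0, and the WT list at its own length left aside), 40 stayed within 1.5 times the reported count and 7 moved. This rule looks at the count of members alone. Within 10 kb of the 5′-most start, 12 members still had a TEAD peak in WT. The share of other genes fell from 20.1% to 12.9%, below the interval of the 12 genes (14.9 to 38.8%). The standing of members in WT thus depended on the window. With 50 kb on either side, 28 members had a TEAD peak in WT (37.7% of other genes) and 9 a YAP peak at 7d (10.8%). With as many peaks as the WT list, 13 members had a TEAD peak at 3d (19.7% of other genes) and 11 at 7d (18.1%), and the promoter counts were 9 (7.70%) at 3d and 5 (5.95%) at 7d, where the alternative keeps fewer peaks by its construction. With 1000 bp on either side of a start, 0 members had a YAP promoter peak at 7d (0.869% of other genes), since the Ccnd1 site lies farther out. Among genes CpG-rich over the whole promoter window, the TEAD promoter shares of other genes were 13.2%, 58.7% and 57.2%. No paired analysis was possible because each list merges its replicates, and for the same reason no replicate could be left out. The spread between animals, and the depth at which a promoter fails to pass the threshold, could not be measured from the lists.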
